A study of Mus musculus with 6 samples.

Results

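The stefins, cystatins and cathepsins described here are 10 genes: the stefin A genes Stfa1, Stfa2 and Stfa3, the stefin B gene Cstb, the secreted cystatin gene Cst6, and the cathepsin genes Ctsl, Ctsb, Ctsd, Ctsk and Ctss. Members were taken by gene name in the scanner files, with every probe of that name. The genes themselves were chosen with earlier results of these data known. They were read by 14 of the 41174 probes of the array, which carry 28146 gene names in all. Cstb, Cst6, Ctsb and Ctsd had 2 probes each and the others 1. Of these 14 probes 13 were tested, and the remaining Cst6 probe was too dim. RNA of adult mouse esophagus was measured on 6 two-colour arrays, in Cy5, against one common reference in Cy3, Agilent's pool of RNA of 11 mouse cell lines. The 3 arrays labelled wild type are C57BL/6J mice, and the 3 labelled Pax9 knockout carry K5Cre;Pax9 loxp/loxp, also with C57BL/6J given as strain. The keratin 5 promoter drives Cre in basal cells of stratified epithelia, so other cells of the esophageal wall are expected to keep the floxed allele, and the wild type label names neither Cre nor a loxP allele. The comparison asks how esophageal expression differs when Pax9, a paired-box transcription factor, is deleted from those cells.

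The labels call the samples of each group biological replicates and say no more on the animals, so each p-value rests on the spread between these samples alone. Slide 1 held the 3 wild type arrays and slide 2 the 3 knockout arrays, so slide and group cannot be told apart. Cy5 was well above background for 67.9% to 77.7% of spots per array and Cy3 for 82.2% to 85.2%, and no spot was saturated. The Pax9 probe, on chromosome 12 (57811169 to 57811228, mm9), was not lower under the knockout label. Its log2 ratio differed by 0.73 ± 0.18 (SE, 3 against 3 arrays, adjusted p = 0.0714) and its Cy5 level alone was higher by 1.09 (adjusted p = 0.00936). The floxed part of Pax9 is not stated in the labels, so groups are named by their labels. All 10 squamous epithelium markers were well above background on all 6 arrays, and so were all 10 skeletal muscle, 9 fibroblast and 14 macrophage and dendritic cell markers, although the labels name the samples as epithelium.

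Cathepsins are proteases of endosomes and lysosomes, made as inactive precursors that are activated in acid. Cathepsins L, B, K and S use a cysteine in their active site, whereas cathepsin D is an aspartic protease that cystatins do not block. Cystatins are tight, reversible inhibitors of the cysteine cathepsins. Stefins are the cystatins that stay inside the cell, and in the mouse the stefin A gene has been copied into a cluster on chromosome 16. In stratified epithelium stefin A is a component of the cornified layer, cystatin M/E from Cst6 controls the activity of cathepsin L and legumain during cornification, and cathepsin L takes part in epidermal renewal and the hair cycle.

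Values are log2 ratios of esophagus over reference after background correction and loess normalization. Differences are arrays labelled knockout minus arrays labelled wild type, from limma with Benjamini-Hochberg adjustment over 30479 tested probes and a threshold of 0.05. In the log ratio 2 of the 13 tested member probes fell, Stfa2 and Ctsl, and 0 rose; 3 had an unadjusted p under 0.05. Over all tested probes 4.18% passed, 2.4% higher and 1.78% lower. In Cy5 alone, quantile normalized, 4 member probes fell, those of Stfa1, Stfa2, Ctsl and probe 2 of Cst6, and 0 rose. The background there was much larger, 27.1% of probes in either direction, 12.8% higher and 14.3% lower. The median difference of the member probes was -0.15 in the log ratio against -0.0028 over all tested probes, and -0.45 against 0.02 in Cy5 alone. The groups did not overlap for 4 member probes in the log ratio (30.5% of all probes) and for 5 in Cy5 alone (47.9%). All 5 in Cy5 alone were lower, as were 24.1% of all probes. Skeletal muscle markers differed by label as well, although their sums overlapped between the groups. Summed skeletal muscle markers were 53124 to 565284 on the wild type arrays and 187363 to 1424676 on the knockout arrays, higher in the knockout array of every replicate number. Their median difference was 1.15 in the ratio and 1.60 in Cy5 alone, and 1 of 10 genes rose in each. With the replicate number as a block 5 of 10 rose in the ratio and 10 in Cy5 alone. Of all tested probes 7.4% and 31.4% passed with that block, in either direction. Summed squamous markers were 1075000 to 1752245 and 1295555 to 1653445. Such sums can hide single genes. The ratio differences of the squamous probes ran from -2.85 to 0.34, and 1 of 10 genes fell. In Cy5 alone 2 of the squamous genes fell and 1 rose. The part of the tissue mix in the member differences was not tested. With 3 against 3 arrays an exact permutation test of a single probe cannot go below p = 0.1.

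**Figure D1:**
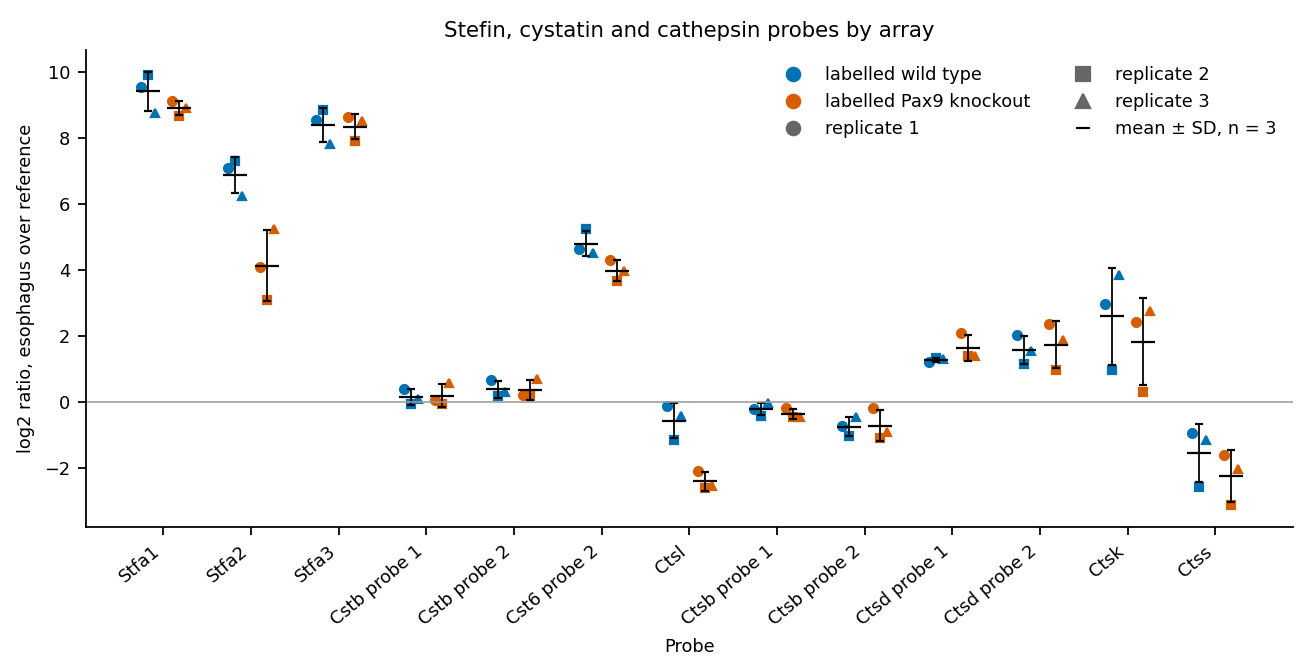
Log2 ratio of esophagus over reference (vertical axis) for the 13 tested member probes (horizontal axis); each point is 1 array, coloured by label and shaped by replicate number, with black bars for the mean ± SD of 3 arrays. The points of Stfa2, Ctsl and probe 2 of Cst6 separate by label with the knockout arrays below, while the wide spread of Ctsk and Ctss comes from replicate 2, lowest in both groups.

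The reference channel did not stay level over the array as a whole, the members included. In Cy3 alone, which carried the same reference on every array per the labels, 9 member probes passed the threshold, 5 higher and 4 lower, where 54.8% of all probes passed, 29.6% higher and 25.1% lower. The 4 lower ones were Stfa1, Stfa2, Stfa3 and Ctsk. For this reason the channels are given below beside the ratio. The ratio and Cy5 alone share the same Cy5 spot signals, so a fall in both is 1 observation read in different ways, and only the ratio is set against the reference on the same array.

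**Figure D2:**
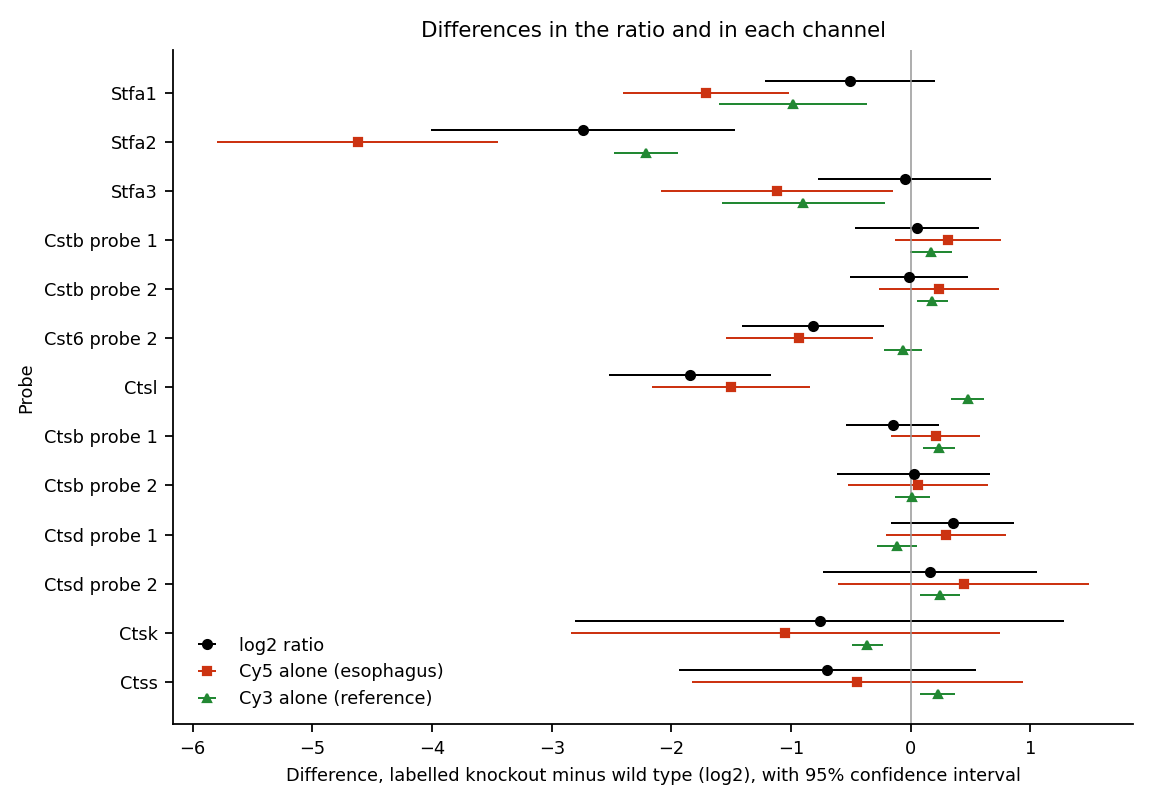
Difference, labelled knockout minus wild type, on the log2 scale (horizontal axis) for each tested member probe (vertical axis), in the ratio (black circles), Cy5 alone (red squares) and Cy3 alone (green triangles), with 95% confidence intervals. For Stfa1, Stfa2 and Stfa3 the Cy5 and Cy3 differences lie on the same side of 0; for Ctsl they lie on opposite sides.

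The stefin A genes are near copies of one another, and the probes show how far each can be read as one gene. The 60-base probes of Stfa1 and Stfa3 cover the same stretch of their transcripts. Of the 59 bases they share in alignment 47 match and 12 differ, and these are set beside each other with differing or unaligned bases in capitals.
Stfa1: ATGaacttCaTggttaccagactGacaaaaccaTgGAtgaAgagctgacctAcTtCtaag
Stfa3: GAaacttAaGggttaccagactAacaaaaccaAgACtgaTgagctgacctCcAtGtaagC
The probe of Stfa2 reads another stretch of its transcript and is shown because it carries the strongest fall among the members.
Stfa2: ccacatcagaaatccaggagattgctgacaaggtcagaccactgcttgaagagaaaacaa
On mm9 the Stfa1 probe lies at chr16:36285323-36285382 on the plus strand and the Stfa3 probe at chr16:36450693-36450752 on the minus strand. The Stfa2 probe is mapped to chr16:36405290-36408367 on the minus strand, a span far longer than 60 bases, so it joins separated exons. The files list the Stfa1 probe for a transcript of the neighbouring gene Cstdc5 as well, so its signal may hold both.

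Stfa2, an intracellular cathepsin inhibitor, had the largest difference of the members. Its background-subtracted Cy5 signal was 9281, 13714 and 19400 on wild type replicates 1, 2 and 3 and 582, 346 and 1660 on the knockout replicates. Every knockout array was thus far below every wild type array. Its quantile normalized Cy5 level fell by 4.62 ± 0.50 on the log2 scale (SE, adjusted p = 0.00382), a 24.6-fold difference, and this call held in all 14 alternatives run on Cy5 alone. The log2 ratios were 7.07, 7.28 and 6.24 on the wild type arrays and 4.07, 3.07 and 5.23 on the knockout arrays. Those groups did not overlap either, and the ratio fell by 2.74 ± 0.54 (SE, adjusted p = 0.0414).

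The ratio of Stfa2 rests on a very weak reference signal. Its Cy3 signal was 278, 322 and 358 on the wild type arrays but 7, 8 and 25 on the knockout arrays, where it was well above background on 1 of 3. The Cy3 level fell by 2.21 (adjusted p = 1.6e-05). As a share of the Cy5 signal, Cy3 was 1.85% to 2.99% on the wild type arrays and 1.28% to 2.27% on the knockout arrays. It thus stayed a small share of Cy5 on all of them. The range of shares was no higher on the knockout arrays, so the plain ratio of these signals was no lower there. In the authors' deposited log ratio, made without the offset used here, Stfa2 stood at 7.23, 7.35 and 6.18 and at 7.48, 6.38 and 7.14, and its difference turned to 0.08 with overlapping groups. The ratio call was also lost with each single array left out (adjusted p 0.0527 to 0.137). What makes the Cy3 signal of this probe follow the Cy5 signal was not tested.

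Stfa1 fell in Cy5 alone and did not pass in the ratio. Its Cy5 signals were 78735, 117379 and 195788 on the wild type arrays and 40520, 46216 and 100082 on the knockout arrays. The raw signals overlap, with knockout replicate 3 above wild type replicate 1, but after quantile normalization the groups did not. The normalized level fell by 1.71 ± 0.29 (SE, adjusted p = 0.00971), a 3.27-fold difference. Its Cy3 signals were 387, 408 and 597 against 108, 156 and 294, lower by 0.99 after normalization (adjusted p = 0.0167). The log2 ratio was 9.40 ± 0.60 (SD, n = 3) under the wild type label and 8.89 ± 0.22 (SD, n = 3) under the knockout label, a difference of -0.51 (adjusted p = 0.357). Its 95% interval ran from -1.22 to 0.21, so the ratio allows both no change and a fall of more than 1 on the log2 scale.

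Stfa3 passed in neither readout. Its log2 ratios were 8.53, 8.82 and 7.81 on the wild type arrays and 8.61, 7.90 and 8.49 on the knockout arrays, with fully overlapping groups. The difference was -0.05 (95% interval -0.77 to 0.67, adjusted p = 0.939), and it turned to 0.64 in the deposited log ratio. In Cy5 alone the groups did not overlap and the difference was -1.12 (interval -2.09 to -0.15, adjusted p = 0.0823). Its Cy3 level was lower by 0.90 (adjusted p = 0.0336), as in Stfa1 and Stfa2. Whether the Stfa1, Stfa2 and Stfa3 differences differ from each other was not tested, since probes are not compared with one another here.

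**Figure D3:**
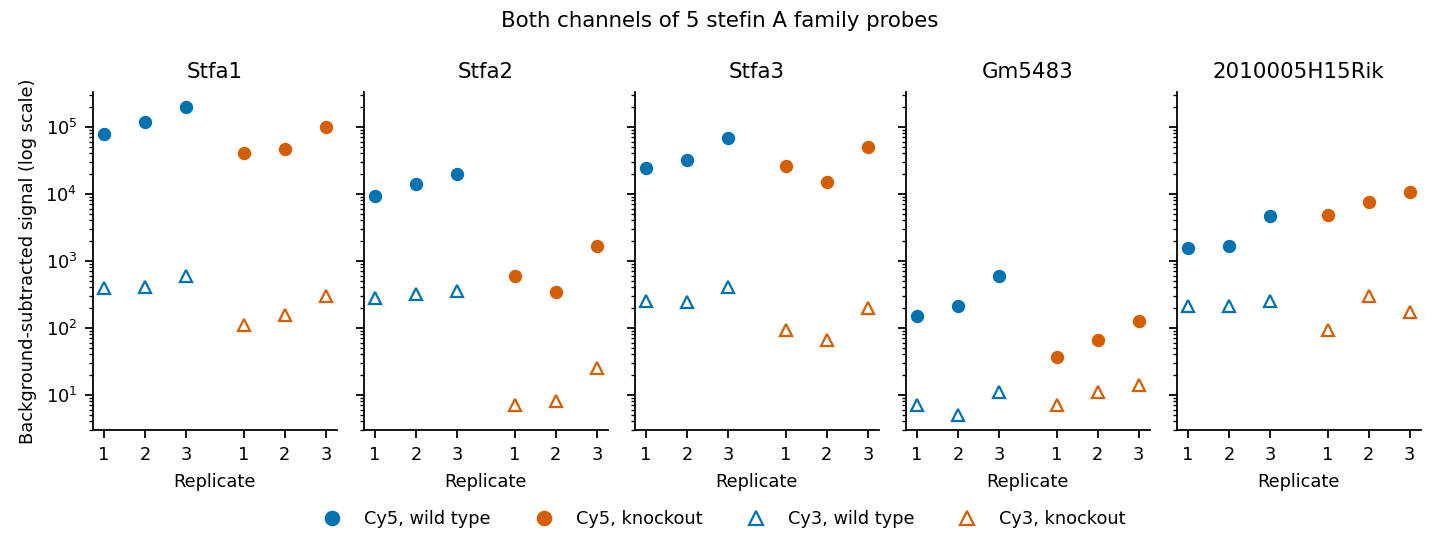
Background-subtracted signal (vertical axis, log scale) by replicate (horizontal axis; 3 wild type arrays on the left and 3 knockout arrays on the right of each panel) for the probes of Stfa1, Stfa2, Stfa3, Gm5483 and 2010005H15Rik, with Cy5 as filled circles and Cy3 as open triangles. Stfa2 drops in both channels. Gm5483 drops in Cy5, and its Cy3 signal is too weak to show a drop. The Cy5 signal of 2010005H15Rik is higher on every knockout array than on any wild type array. Knockout replicate 1 (4768) lies close to wild type replicate 3 (4667).

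The neighbours in the stefin A cluster did not all go one way. Gm5483, now named Cstdc4, fell in the ratio by 1.92 ± 0.35 (SE, adjusted p = 0.034) and in Cy5 alone by 1.61 (adjusted p = 0.00536). Its Cy5 signals were 148, 214 and 583 on the wild type arrays and 37, 65 and 124 on the knockout arrays, all well above background, while its Cy3 signals of 5 to 14 did not separate the groups. Its ratio call was lost with each single array left out (adjusted p 0.0536 to 0.103) and with median centring (0.0559). Its Cy5 call held in all 14 alternatives. The Gm5483 probe is shown because a 21-base stretch of it, in capitals, is also in the Stfa1 probe above.
Gm5483: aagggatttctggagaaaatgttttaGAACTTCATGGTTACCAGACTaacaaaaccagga
The probe annotated 2010005H15Rik, now Csta2, went the other way. Its log2 ratios were 4.74, 4.66 and 4.67 against 6.17, 5.38 and 6.51, so every knockout array was above every wild type array. The ratio rose by 1.33 ± 0.28 (SE, adjusted p = 0.0496) and the Cy5 level by 1.08 (adjusted p = 0.011). The ratio lies at the threshold and was past it in 1 of the 6 fits with an array left out, without knockout replicate 2 (adjusted p 0.0168 there and up to 0.164 otherwise). In all, 12 of 17 alternatives lost the ratio call, among them the deposited ratio (adjusted p = 0.12) and median centring (0.106). The Cy5 call of this probe held in all 14 alternatives.

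The other probes of the cluster did not pass in the main fit of either readout. Csta, now Csta1, had ratio differences of -0.42 and -0.21 by its 2 probes (adjusted p 0.394 and 0.695). Its Cy5 levels differed by -0.67 and 0.29, and the first passes when the replicate number is a block (adjusted p = 0.0423). BC100530, now Cstdc5, differed by -0.41 in the ratio (adjusted p = 0.49), and Stfa2l1 by -0.45 (adjusted p = 0.569). The Stfa2l1 probe is also listed for a transcript of Stfa2, and the first Csta probe for one of Cstdc5. The BC100530 probe matches that Csta probe in all 45 bases of their overlap and the Stfa1 probe in 38 of 40. How much of any signal comes from a related transcript was not tested, so each stefin A value stands for a probe rather than surely for 1 gene.

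The 250 bases before the start of Stfa1, Stfa2 and Stfa3 were compared because these members are near copies of one another. RefSeq promoter sequences, on assembly GRCm38.p6, were matched for 7 of the 10 members. In pairwise alignment Stfa1 and Stfa2 were 81.0% identical, Stfa1 and Stfa3 83.5%, and Stfa2 and Stfa3 80.4%. Of the rest of the cluster, Stfa2l1 was 89.4% identical to Stfa2 and Cstdc5 81.2% to Stfa1, and neither passed in either readout. Cstdc4, which fell, was 72.3% identical to Stfa1, Csta2, which rose, 47.2%, and Csta1, which did not pass in the main fit, 41.5%. The last 80 bases before the start are shown with the 2 longest stretches common to these members, both of 13 bases, in capitals. They lie at chr16:36277068-36277147 (plus strand), chr16:36408364-36408443 (minus) and chr16:36455393-36455472 (minus) of GRCm38.p6, a build other than that of the probes.
Stfa1: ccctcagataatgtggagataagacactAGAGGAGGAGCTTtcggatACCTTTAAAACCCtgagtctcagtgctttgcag
Stfa2: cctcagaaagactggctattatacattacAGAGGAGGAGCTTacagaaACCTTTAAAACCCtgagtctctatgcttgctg
Stfa3: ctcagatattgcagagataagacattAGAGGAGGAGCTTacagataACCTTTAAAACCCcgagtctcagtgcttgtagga
The stretch AGAGGAGGAGCTT begins 51 to 54 bases before the start and ACCTTTAAAACCC 32 to 34. Searched on both strands in the 250 bases, the first is in 4 of 32851 promoter entries (0.0122%) and in 3 of the 9 entries of the stefin A family, those of Stfa1, Stfa2 and Stfa3. The second is in 8 entries (0.0244%), 6 of them of the family: these members with Stfa2l1, Cstdc4 and Csta3. Both were found by comparing these sequences and describe them only.

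Cstb, the cytosolic cathepsin inhibitor found in most cells, did not pass in either readout. The log2 ratios of its first probe (chromosome 10, 77890058 to 77890117, mm9) were 0.39, -0.08 and 0.07 on the wild type arrays and 0.05, -0.07 and 0.57 on the knockout arrays. Its difference was 0.05 (95% interval -0.46 to 0.57) and that of the second probe -0.02 (-0.51 to 0.48). In Cy5 alone they differed by 0.31 (-0.14 to 0.76) and 0.23 (-0.27 to 0.73). In the main fit the 95% intervals of both probes held no change of 1 on the log2 scale in either readout. They do not cover a slide effect or the choice of normalization. With median centring the ratio differences were 0.558 and 0.412. In Cy5 alone the processed signal gave -0.235 and -0.236. Both probes overlapped between the groups. Their Cy3 levels differed by 0.17 (adjusted p = 0.0895) and 0.18 (adjusted p = 0.0292).

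Cst6, which encodes the secreted cystatin M/E of cornifying epithelium, fell in Cy5 alone by the probe at position 614 of its transcript (chromosome 19, 5347982 to 5348041, mm9). Its log2 ratios were 4.62, 5.24 and 4.51 on the wild type arrays and 4.30, 3.66 and 3.95 on the knockout arrays. The groups did not overlap, and the ratio differed by -0.82 ± 0.25 (SE, adjusted p = 0.112); it passed in 1 alternative, with array weights (-0.86, adjusted p = 0.0458). The Cy5 level fell by 0.93 ± 0.26 (SE, adjusted p = 0.0391), a 1.91-fold difference, while the Cy3 level differed by -0.07 (adjusted p = 0.409). The Cy5 call was lost in 8 of 14 alternatives, and leaving out any array other than knockout replicate 1 ended it (adjusted p 0.0671 to 0.103, against 0.0411 without that one). The other Cst6 probe lies far downstream, at position 2975 of the listed transcript, and was well above background on 1 array only, so it gives no comparison.

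Ctsl, a cathepsin of epidermal renewal and the hair cycle that cystatin M/E and the stefins inhibit, fell in both readouts. Its probe lies on chromosome 13 (64465287 to 64465346, mm9). Its log2 ratios were -0.13, -1.16 and -0.44 on the wild type arrays and -2.10, -2.61 and -2.55 on the knockout arrays, so every knockout array was below every wild type array. The ratio fell by 1.85 ± 0.29 (SE, adjusted p = 0.0236), a 3.59-fold difference. The Cy5 level fell by 1.50 ± 0.28 (SE, adjusted p = 0.012), or 2.84-fold, whereas the Cy3 level was higher by 0.48 (adjusted p = 0.000529). Unlike Stfa2, the reference signal was strong on all arrays, from 175374 to 225071, and the deposited log ratio gave -1.99. Leaving out an array ended the ratio call in 5 of 6 cases (adjusted p 0.0506 to 0.116; 0.0326 without wild type replicate 2). The Cy5 call ended only without knockout replicate 3 (adjusted p = 0.0505).

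Macrophages also make cathepsin L, and markers of macrophages and dendritic cells were read as 1 list. In the log ratio 3 of 14 macrophage and dendritic cell genes fell by at least 1 probe (Cd207, Itgax and H2-Aa) and 0 rose. Csf1r and Cd68 of the same list did not pass in that fit. The summed Cy5 level of the list, with the brightest probe of each gene, was 61244 to 147915 on the wild type arrays and 36416 to 70387 on the knockout arrays. With the replicate block, described with Ctsk, 7 of 14 fell in the ratio, where 7.4% of all probes passed in either direction. In Cy5 alone 7 fell and 0 rose, and 8 and 0 with the block. Of all tested probes 14.3% fell in Cy5 alone without the block. The median difference of the list was -0.66 in the ratio and -0.83 in Cy5 alone. The part of these cells in the Ctsl difference was not tested, and in bulk RNA fewer cells of a type and less RNA per cell cannot be told apart. Stefin A genes are also known in neutrophils. Of 11 neutrophil genes 5 were tested, of which limma called 0 in the ratio (1 at an unadjusted p under 0.05). Their ratio differences ran from -1.23 to 0.43 by probe. In Cy5 alone 1 of these genes fell and 1 rose, and 1 and 0 with the block. Elane, Mmp8 and Ngp were not well above background on any array. The part of neutrophils in the stefin A differences was not tested.

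Ctsb and Ctsd, the abundant lysosomal cysteine and aspartic proteases, did not pass by any of their probes. The first Ctsb probe (chromosome 14, 63761906 to 63761965, mm9) had ratios of -0.21, -0.43 and -0.04 against -0.20, -0.46 and -0.47, a difference of -0.15 (95% interval -0.54 to 0.24). The second, in a later part of the transcript, differed by 0.02 (-0.61 to 0.66). In Cy5 alone they differed by 0.21 and 0.06 (adjusted p 0.345 and 0.857), and in Cy3 by 0.23 and 0.01 (adjusted p 0.0108 and 0.864). The first Ctsd probe (chromosome 7, 149561962 to 149562021, mm9) was the only member probe whose groups separated upwards in the ratio, as 15.5% of all probes did. Its ratios were 1.20, 1.31 and 1.30 on the wild type arrays and 2.08, 1.39 and 1.38 on the knockout arrays, and only knockout replicate 1 stood clearly apart. The difference was 0.35 (-0.16 to 0.86, adjusted p = 0.375), and the second Ctsd probe differed by 0.16 (-0.73 to 1.06) with overlapping groups. In Cy5 alone the Ctsd probes differed by 0.30 and 0.44 (adjusted p 0.317 and 0.468), and in Cy3 by -0.11 and 0.24 (adjusted p 0.208 and 0.0238).

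Ctsk, the collagen-degrading cathepsin of osteoclasts and fibroblasts, varied more within groups than between them. Its log2 ratios were 2.94, 0.96 and 3.84 on the wild type arrays and 2.42, 0.30 and 2.74 on the knockout arrays, with replicate 2 lowest in each group. The difference was -0.76 ± 0.87 (SE, adjusted p = 0.637). Ctss, the cathepsin that antigen-presenting cells use to trim the invariant chain of class II molecules, showed the same order. Its ratios were -0.96, -2.58 and -1.18 against -1.61, -3.14 and -2.05, a difference of -0.70 ± 0.53 (SE, adjusted p = 0.462). In Cy3 alone Ctsk was lower by 0.36 (adjusted p = 0.00155) and Ctss higher by 0.23 (adjusted p = 0.0187). For both genes the ratio of the knockout array lay below that of the wild type array of the same number in all 3 pairs.

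The labels number the replicates but state no link between wild type and knockout animals. By the rule stated with the methods the numbers may be pairs. The main fit has no block, and a fit with the number as a block is given beside it. In that fit Stfa2 and Ctsl stood at adjusted p = 0.0341 and 0.00616 in the ratio. With that block 7.4% of all probes passed in the ratio and 31.4% in Cy5 alone. Ctsk and Ctss then stood at adjusted p = 0.0532 and 0.0501 in the ratio, with smaller errors (SE 0.18 and 0.16). In Cy5 alone Ctsk fell by 1.05 with the block (adjusted p = 0.0116, against 0.32 without it), and Ctss differed by -0.45 (0.0884). Each number is also one position on its slide, so pairing and position cannot be told apart. Summed fibroblast markers were lowest on replicate 2 in each group, at 157760 and 172966 where the other arrays had 276834 to 501142. The summed macrophage and dendritic markers were lowest there as well, at 61244 and 36416, and skeletal muscle markers highest, at 565284 and 1424676. Of the fibroblast list limma called 0 of 9 genes in the ratio (0 at an unadjusted p under 0.05). The part of these cell types in the Ctsk and Ctss values was not tested.

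**Figure D4:**
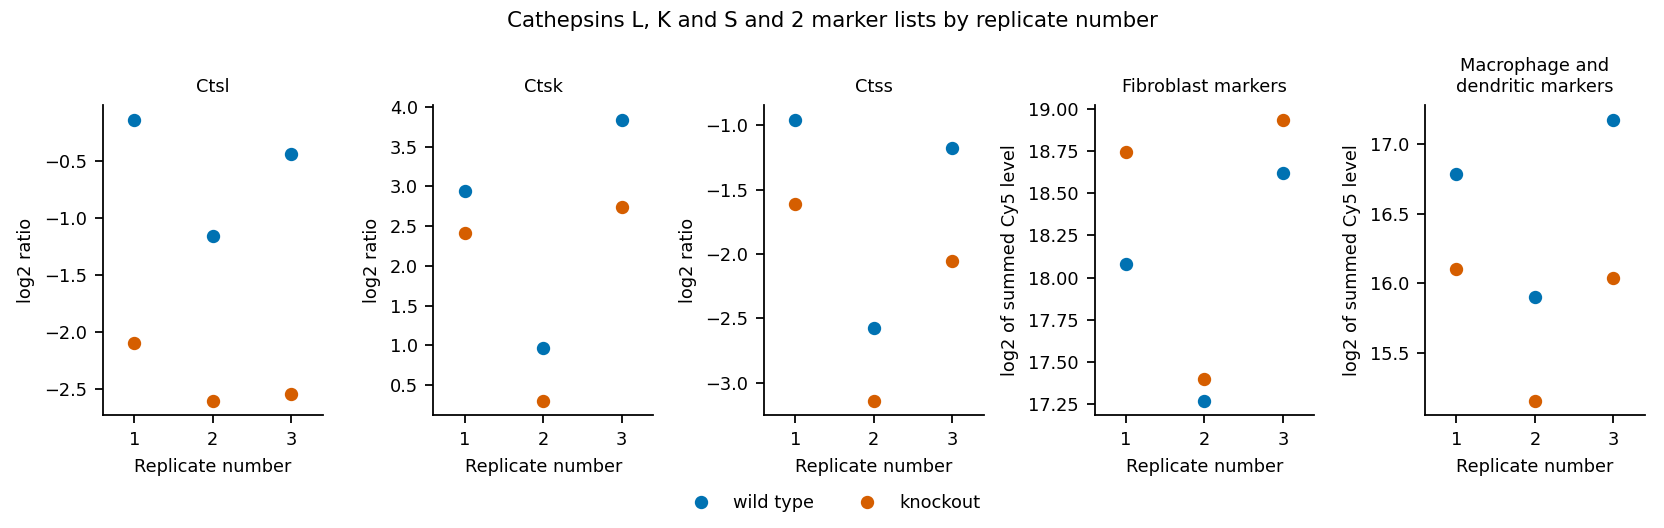
Log2 ratio of Ctsl, Ctsk and Ctss, and log2 of the summed Cy5 level of fibroblast and of macrophage and dendritic cell markers (vertical axes, not starting at 0), by replicate number (horizontal axes) for wild type (blue) and knockout (orange) arrays. Ctsk, Ctss and both marker sums are lowest on replicate 2 of each group, whereas Ctsl separates by label on every number.

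Beyond the members, the other cystatins and related inhibitors had 16 of 22 genes tested, of which 2 rose (2010005H15Rik and Cst11) and 1 fell (Gm5483) in the ratio. With the replicate block 4 rose and 2 fell, as Cst10 (0.78, adjusted p = 0.0396 with the block against 0.0576 without) and Fetub (1.00, 0.0355 against 0.188) also rose and Hrg (-0.81, 0.0399 against 0.0721) also fell. In Cy5 alone 3 rose and 3 fell, and 5 and 4 with the block. Over all tested probes 2.4% rose and 1.78% fell in the ratio, and 12.8% and 14.3% in Cy5 alone. With the block 7.4% and 31.4% of probes passed in either direction. These shares count probes, whereas the list counts are of genes. The median difference of the list was -0.15 in the ratio and 0.11 in Cy5 alone. Cst11, a cystatin known from the epididymis, was not well above background on any wild type array and had Cy5 signals of 96 to 118 on the knockout arrays. The ratio rose by 0.93 (adjusted p = 0.0284) and the Cy5 level by 1.19 (adjusted p = 0.00545), while with 75th percentile scaling the Cy5 difference was 0.86 and did not pass (adjusted p = 0.119). With median centring the ratio differed by 0.09 (adjusted p = 0.861), and the call was also lost with the deposited ratio (0.114). It was lost in 5 of 6 fits with an array left out, all but the one without wild type replicate 3 (adjusted p 0.0519 to 0.113). Its Cy3 level was also higher, by 0.92 (adjusted p = 3.13e-05). Cst10 was likewise not well above background on any wild type array, and its Cy3 level was higher by 0.69 (adjusted p = 0.0108). Both probes entered the test only through the knockout arrays, so their rises cannot be read apart from that filter.

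Of the other cathepsins and their partners 15 of 22 genes were tested, and 2 fell and 0 rose in the ratio. In Cy5 alone 6 fell and 0 rose, or 5 and 1 with the replicate block. Of all tested probes 1.78% fell and 2.4% rose in the ratio, and 14.3% and 12.8% in Cy5 alone. With the block 31.4% passed in Cy5 alone, in either direction. Napsa, an aspartic protease related to cathepsin D, had ratios of -1.05, -1.75 and -1.36 on the wild type arrays and -2.80, -3.33 and -3.10 on the knockout arrays. It fell by 1.69 ± 0.23 (SE, adjusted p = 0.0181) and by 1.82 in Cy5 alone (adjusted p = 0.0042). The ratio call was lost without wild type replicate 1 (adjusted p = 0.0668), without knockout replicate 3 (0.0972) and with median centring (0.0989). The Cy5 call held in all 14 alternatives. Ctsw, the cathepsin of cytotoxic lymphocytes, fell by 0.88 ± 0.17 (SE, adjusted p = 0.0416), with Cy5 signals of 38 to 155 against 15 to 47. It fell in Cy5 alone by 0.77 (adjusted p = 0.0218). Its ratio call was lost with each array left out (adjusted p 0.0596 to 0.176), with median centring (0.172) and with the filter on all 6 arrays (0.0541). Its Cy5 call was lost without wild type replicates 2 or 3 or knockout replicates 1 or 3 (adjusted p 0.0572 to 0.0737).

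All 23 genes of lysosomal hydrolases and delivery were tested, and 1 fell and 1 rose in the ratio. Neu1, a sialidase bound to cathepsin A, fell by 0.74 by one probe (adjusted p = 0.0327), while another differed by -0.30 (adjusted p = 0.417). Ppt1, which removes fatty acids from proteins, rose by 0.67 by one probe (adjusted p = 0.0421; 0.0524 with the replicate block), while its other probes differed by 0.22 and -0.66 (adjusted p 0.616 and 0.0596). Whether the probes of a gene differ was not tested. Both ratio calls were lost with each array left out (adjusted p 0.0569 to 0.154 and 0.0658 to 0.183). In all, the Neu1 call was lost in 10 and the Ppt1 call in 12 of 17 alternatives, the deposited ratio among them (0.216 and 0.196). In Cy5 alone the same Neu1 probe fell by 1.07 (adjusted p = 0.00593) and the same Ppt1 probe rose by 0.98 (adjusted p = 0.00706), and both calls held with each array left out but not with the processed signal (-0.37 and 0.57, adjusted p 0.322 and 0.14). In Cy5 alone 6 genes of this list fell and 2 rose, and the list's median difference was -0.24. Of all tested probes 14.3% fell and 12.8% rose there, and 1.78% and 2.4% in the ratio.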

How the data were processed

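The authors deposited 1 scanner file per array, with the linear intensity of 45018 spots of Agilent design 014868. Per the file headers it was written by Feature Extraction 10.7.3.1, whereas version 9.1 stands in the submitters' processing notes. The files also hold a deposited log10 ratio of Cy5 over Cy3, background-subtracted and dye-normalized by the program, and other values that are flags of the program, per the file headers. The deposited matrix holds log2 values that correlate at -0.994 to -0.996 with that ratio, so they are of opposite sign; how they were centred is not stated.

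Intensities were background-corrected (normexp, offset 50) and loess-normalized, outlier spots were set to missing, and spots of a probe were averaged. Probes whose Cy5 signal stood well above background throughout at least 1 group (3 arrays) were tested. Differences were fitted with limma 3.58.1 (lmFit, eBayes, two-sided, no covariate) in R 4.3.3 and adjusted by Benjamini-Hochberg at 0.05. Cy5 and Cy3 alone were quantile-normalized and fitted alike. The fit was tested on simulated data. No dyes were swapped, so a dye bias could remain in the ratio. The number of arrays limits the precision.

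Members and gene lists were chosen with earlier results of these data known. Named genes are all members, and of 3 lists (other cystatins and inhibitors, other cathepsins and partners, lysosomal delivery) each gene past the threshold and the 2 smallest p; related stefin probes, Cst10, Fetub, Hrg, Cd207, Itgax and H2-Aa were named after their values were seen. Marker lists of squamous epithelium, macrophages and dendritic cells, neutrophils, fibroblasts, and skeletal muscle are given as counts and sums. Lists of smooth muscle (0 of 7 genes past the threshold in the ratio by limma, 0 at an unadjusted p under 0.05) and endothelium (0 of 6, and 3; 1 rose with the replicate block) were run too; of squamous markers 1 of 10 fell. Current symbols come from RefSeq genes of GRCm38.p6, used for names only.

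The labels number the replicates in both groups. Deviations from group means correlated at 0.17, 0.51 and 0.34 for arrays of the same number, all above 0.1. By the rule used the numbers may then be pairs. A fit with the number as a block was run beside the main fit, which has no block. Different numbers gave -0.49 to 0.16. Wild type 1 correlated at 0.163 with knockout 3 and at 0.167 with knockout 1, so the rule does not settle the pairing of replicate 1. Alternatives covered background, normalization, filter, variance model, array weights, replicate block and each array left out.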

Additional observations from a re-analysis of the deposited data

How the results depend on the processing

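Of 17 alternatives to the log ratio fit, the count of probes past the threshold moved from 1274 to 727 with the deposited log ratio, 714 with the deposited matrix turned in sign, 139 with median centring, 699 with a filter on all 6 arrays, 3887 with array weights and 2254 with a replicate block, and ranged from 38 to 1112 with an array left out. The 2 member probes that fell became 1 with the deposited ratio, the matrix, offset 16, no background correction or no filter, 0 with median centring and 3 with array weights (Cst6 probe 2 gained), and ranged from 0 to 1 with an array left out. In Cy5 alone the 4 became 2 with the processed signal at its 75th percentile and ranged from 2 to 4 with an array left out; 0 member probes rose under any setting run. With the 75th percentile scaling 3505 of all probes passed in Cy5 alone, 1239 higher and 2266 lower, where the main fit has 3896 and 4372. The replicate block, beside the counts above, changed no call of a member probe other than Ctsk in Cy5 alone.

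Stfa2 lost its ratio call with median centring (adjusted p = 0.0831), offset 16 (0.0633), no background correction (0.054) and no filter (0.0521), Ctsl with median centring (0.146), and Stfa1 its Cy5 call with the processed signal (0.0886). Signs turned with the deposited ratio and with the matrix for Stfa2 (0.078), Stfa3 (0.643), Cstb probe 1 (-0.129), Ctsb probe 2 (-0.002) and Ctsd probe 2 (-0.153); with median centring for Stfa3 (0.17), Cstb probe 2 (0.412) and Ctsb probe 1 (0.367); for Stfa3 with offset 16 (0.139) and no background correction (0.101); and for Cstb probe 2 with array weights (0.12). In Cy5 alone they turned with the processed signal for both Cstb probes (-0.235 and -0.236), both Ctsb probes (-0.205 and -0.228) and both Ctsd probes (-0.31 and -0.282), and with 75th percentile scaling for Ctsb probe 2 (-0.048). With an array left out the ratio differences that turned ranged from -0.34 to 0.169 for Stfa3, -0.139 to 0.186 and -0.182 to 0.126 for Cstb, -0.244 to 0.203 for Ctsb probe 2 and -0.151 to 0.547 for Ctsd probe 2, and in Cy5 alone from -0.163 to 0.226 for Ctsb probe 2 and -0.996 to 0.036 for Ctss. Of these turned values only Stfa2 was past the threshold before. The cause of these changes was not tested. Slide could not be fitted as a block, since each group has a slide of its own, and signal near background limits the Stfa2 and Gm5483 ratios.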
